A study of Oryza sativa Japonica Group with 6 samples.

Results

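The momilactone gene cluster of rice chromosome 4 and the synthase genes KSL8 and KSL10 of the oryzalexin routes were followed in seedlings with and without a mutation of OsINO80, which encodes the motor ATPase of the INO80 chromatin remodeller. The set holds 8 of the 55801 loci in the deposited tables and was chosen by published locus number. The cluster genes are, in genome order, CPS4 (LOC_Os04g09900), CYP99A3 (LOC_Os04g09920), a MAS copy (LOC_Os04g10000), MAS (LOC_Os04g10010), KSL4 (LOC_Os04g10060) and CYP99A2 (LOC_Os04g10160). KSL8 (LOC_Os11g28530) and KSL10 (LOC_Os12g30824) lie alone on chromosomes 11 and 12. The choice was made with the counts and TPM of both genotypes known, so the difference between genotypes in these 8 genes is given as a description, with no p-value, and supports nothing by itself.

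RNA was sequenced from 3 libraries of wild-type Nipponbare (WT) and 3 of the mutant labelled osino80-2, called osino80, in the same cultivar. All were untreated seedlings of 14 days, grown in chambers under an SD photoperiod. The mutant is 1 allele, whose lesion the labels do not describe. The labels number the libraries in each genotype without saying whether they came from separate plants, so the spread between them may be technical.

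Rice defends itself with labdane-related diterpenoids, which are made in plastids from geranylgeranyl diphosphate. A copalyl diphosphate synthase (CPS) first folds this precursor into the syn or the ent form of copalyl diphosphate, a kaurene synthase-like enzyme (KSL) then closes the ring system, and cytochromes P450 and a dehydrogenase finish the product. Momilactones, which also leave the roots and inhibit neighbouring plants, come from the syn form. CPS4 makes that form, KSL4 turns it into the momilactone precursor, and CYP99A2, CYP99A3 and MAS act later. KSL8 draws on the same syn form to start oryzalexin S, whereas KSL10 draws on the ent form, made for defence by CPS2, to start the other oryzalexins.

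The 6 libraries held 61426662 to 73293481 counts each, and the OsINO80 transcript (LOC_Os03g22900, a published locus number) stood at 51.1% of its WT level in osino80. In every library 82.4% to 83.7% of the counts from 1 to 20 were even, as if each mate of a read pair had been counted, so the number of fragments behind a count is smaller than the count. All 8 genes were weakly expressed, with 12 to 895 counts per library, and all 8 passed the filter on low counts along with 24914 loci in total. The RefSeq gene table, which has another assembly, held 6 of the 8 names, each on the chromosome coded in its locus number. It listed CPS4, CYP99A3, MAS, KSL4 and CYP99A2 in that order, with 1 further protein-coding gene, between CYP99A3 and MAS, where the numbering puts the MAS copy.

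Every one of the 8 genes had a log2 fold change below 0 in osino80, and the sizes ranged from -1.52 for KSL4 to -0.08 for CYP99A3. With edgeR's quasi-likelihood test and an adjusted p under 0.05 as the threshold, 6 of 8 passed as lower, 5 of the 6 cluster genes and 1 of the 2 unclustered genes. Of all tested genes 19.1% passed as lower and 18.4% as higher. Among genes of low abundance (mean log2 CPM from -1 to 1), a band that CPS4 and KSL8 exceed, 7.96% passed as lower. At least 2-fold lower were 4 of the 8, all in the cluster, against 1.33% of all tested genes. In 6 of the 8, every osino80 library stood below every WT library, which held for 22.9% of all tested genes. The median log2 fold change was -1.17 over the cluster and 0.00 over all tested genes.

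**Figure D1:**
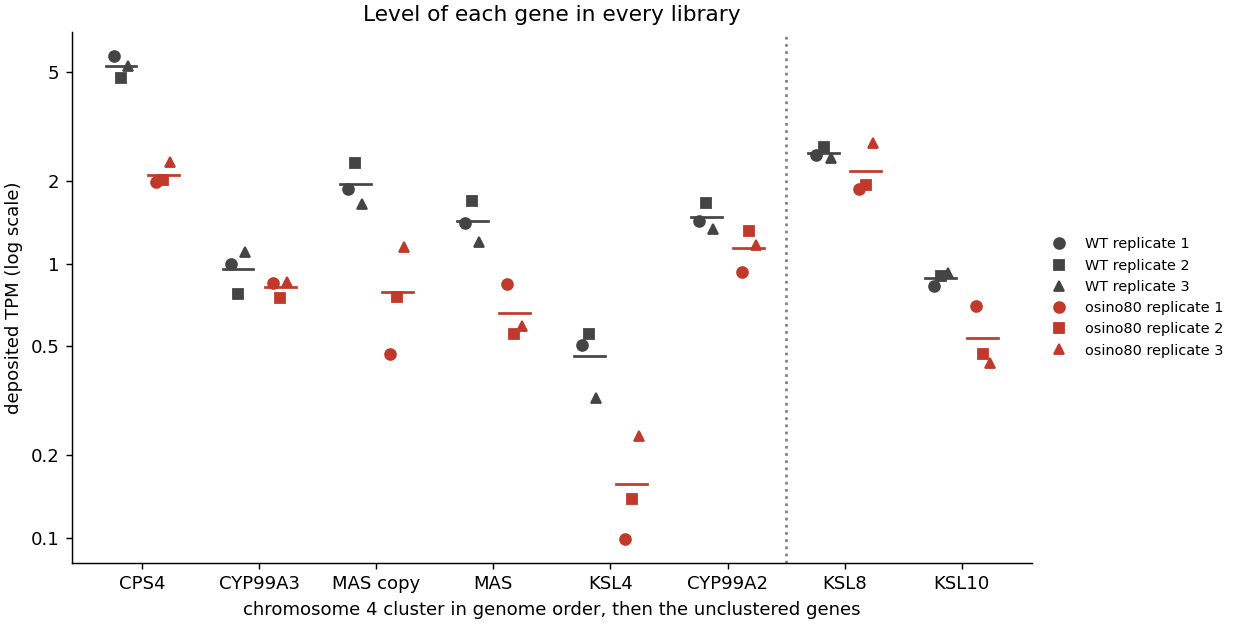
Deposited TPM of the 8 genes on a log axis in each of the 6 libraries (points, with the marker giving the replicate) and the mean of each genotype (lines). The WT points of CPS4, MAS copy, MAS, KSL4, CYP99A2 and KSL10 stand above all osino80 points, while those of CYP99A3 and KSL8 overlap them.

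CPS4, the syn-copalyl diphosphate synthase that opens the route, was the most abundant of the set in WT. Its WT counts, in the order of replicates 1 to 3 as throughout, were 895, 714 and 715, and its osino80 counts were 278, 273 and 345. The genotypes were far apart, with every osino80 library well below the lowest WT library. The level per transcript length was 5.24 ± 0.464 TPM in WT and 2.11 ± 0.195 TPM in osino80 (SD, n = 3), or 40.3% of WT. Its log2 fold change from the counts was -1.28 ± 0.10 (SE).

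KSL4, the syn-pimaradiene synthase that acts next, was the least abundant gene of the set. Its WT counts were 62, 67 and 38, and its osino80 counts were 12, 14 and 28. No osino80 library reached the lowest WT library, and WT replicate 3 and osino80 replicate 3 were the nearest to each other. Its level was 0.461 ± 0.121 TPM in WT and 0.158 ± 0.0696 TPM in osino80 (SD, n = 3), and the log2 fold change was -1.52 ± 0.40 (SE). Without osino80 replicate 3, its highest mutant library, the log2 fold change of KSL4 was -1.95.

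MAS, the momilactone A synthase that closes the route, and its copy in the adjacent locus were also lower. The copy had WT counts of 88, 105 and 72 against osino80 counts of 19, 31 and 50. MAS itself had 84, 102 and 54 in WT against 43, 28 and 36 in the mutant. The genotypes did not overlap in CPM, counts scaled to library size, for either gene. The log2 fold changes were -1.31 ± 0.30 for the copy and -1.06 ± 0.30 for MAS (SE). Without WT replicate 2, MAS passed the threshold only narrowly, with a log2 fold change of -0.858. The copies are similar in sequence and their reads may have been split or shared. Summed, a step added after the values were seen, both rows held 172, 207 and 126 counts in WT against 62, 59 and 86 in the mutant, and the log2 fold change of the sum was -1.19 ± 0.20 (SE).

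The P450 genes CYP99A3 and CYP99A2, whose products oxidise the diterpene made by KSL4, had the log2 fold changes nearest to 0 in the cluster. CYP99A3 lies beside CPS4 with 1 locus between them, and its WT counts of 75, 59 and 74 met osino80 counts of 58, 54 and 74. The libraries of both genotypes overlapped, and its log2 fold change was -0.08 ± 0.27 (SE), with an approximate 95% interval of -0.61 to 0.46. The log2 fold change of CPS4 was lower than that of CYP99A3 by a difference of -1.20 ± 0.29 (SE, taking both genes as independent).

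CYP99A2, at the far end of the cluster, had WT counts of 134, 157 and 114 and osino80 counts of 69, 97 and 102. All WT libraries stood above all osino80 libraries in CPM by a small gap, with 1.83 in the lowest WT and 1.56 in the highest osino80 library. Its log2 fold change was -0.50 ± 0.20 (SE). That lay above CPS4 by 0.78 ± 0.23 and above MAS by 0.56 ± 0.36 (SE, taking the genes as independent), the latter within 2 SE. CYP99A2 passed the threshold narrowly, and no longer without WT replicate 2 (log2 fold change -0.40), WT replicate 3 (-0.54) or osino80 replicate 1 (-0.36), without the low-count filter, or on TPM. Summed with CYP99A3, a step likewise added after the values were seen, the pair had a log2 fold change of -0.34 ± 0.16 (SE) and did not pass.

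**Figure D2:**
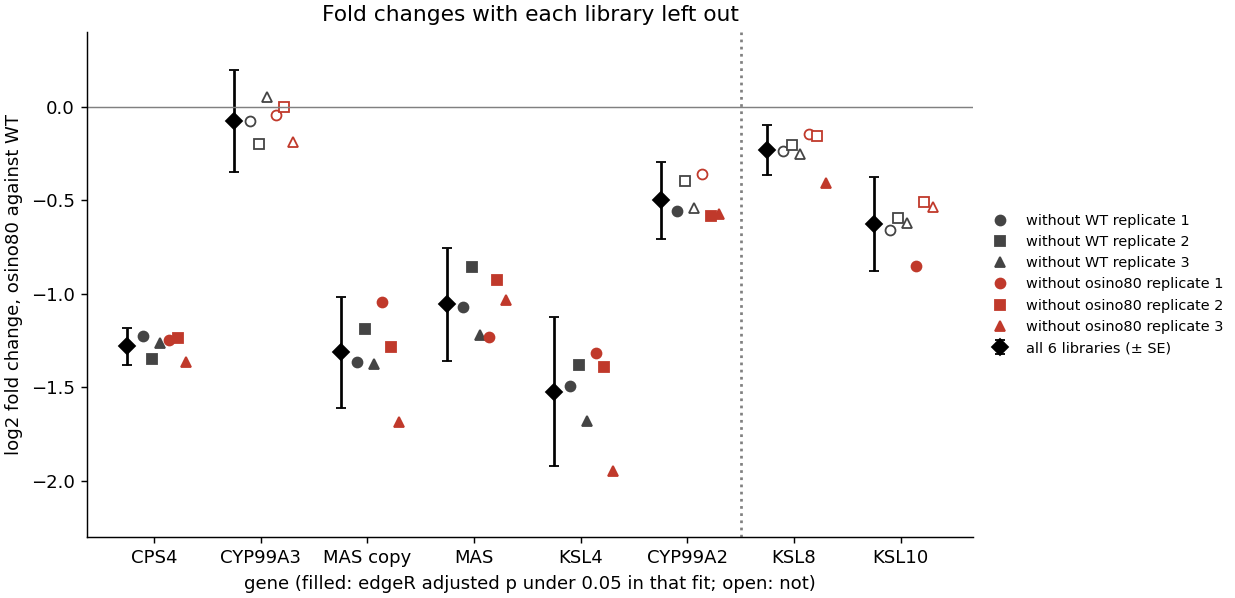
Log2 fold change of each gene with all 6 libraries (diamonds, with the standard error) and with each library left out (other markers), filled where edgeR's adjusted p was under 0.05 in that fit. CPS4, MAS copy, MAS and KSL4 passed in every fit, CYP99A3 in none, and CYP99A2, KSL8 and KSL10 depended on the libraries used.

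KSL8, the synthase that takes the same syn precursor toward oryzalexin S, had WT counts of 323, 319 and 263 and osino80 counts of 207, 209 and 308. In CPM, osino80 replicates 1 and 2 were below all WT libraries and osino80 replicate 3, at 4.64, was above all of them. The log2 fold change was -0.23 ± 0.13 (SE), with an approximate 95% interval of -0.49 to 0.03, and KSL8 did not pass. Without osino80 replicate 3 it passed, at -0.41.

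KSL10, the ent-sandaracopimaradiene synthase, had WT counts of 100, 104 and 88 and osino80 counts of 75, 48 and 54. Osino80 replicate 1 was the nearest to WT, and the genotypes did not overlap in CPM. The log2 fold change was -0.62 ± 0.25 (SE) and passed the threshold, but not without WT replicate 1 (-0.66), WT replicate 2 (-0.59), WT replicate 3 (-0.62), osino80 replicate 2 (-0.51) or osino80 replicate 3 (-0.54). Both unclustered genes lay inside the range of the cluster. The log2 fold change of CYP99A2 was above that of KSL10 by 0.12 ± 0.32 and differed from that of KSL8 by -0.27 ± 0.24, KSL8 being the nearer to 0 (SE). The clustered and the unclustered genes therefore overlapped in fold change, through CYP99A3 and CYP99A2. CPS4, MAS copy, MAS and KSL4 lay below KSL8, with differences of -1.05 ± 0.17, -1.08 ± 0.33, -0.83 ± 0.33 and -1.29 ± 0.42. Against KSL10 the differences were -0.66 ± 0.27 for CPS4, -0.69 ± 0.39 for MAS copy, -0.43 ± 0.39 for MAS and -0.90 ± 0.47 for KSL4 (SE, taking the genes as independent). Those of MAS copy, MAS and KSL4, which had fewer counts than CPS4 and larger errors, were within 2 SE.

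The order of levels per transcript length changed at its top, and MAS copy moved from rank 3 to 5 and CYP99A3 from 6 to 4. In WT it ran, in TPM, from CPS4 at 5.24 ± 0.464 through KSL8 (2.52 ± 0.117), MAS copy (1.95 ± 0.345), CYP99A2 (1.47 ± 0.170), MAS (1.43 ± 0.250), CYP99A3 (0.956 ± 0.165) and KSL10 (0.884 ± 0.0484) to KSL4 at 0.461 ± 0.121 (SD, n = 3). Neighbours in this order overlapped between libraries from MAS copy to CYP99A2, CYP99A2 to MAS and CYP99A3 to KSL10. In osino80 KSL8 (2.18 ± 0.498 TPM) and CPS4 (2.11 ± 0.195 TPM) overlapped at the top, followed by CYP99A2 at 1.14 ± 0.191 TPM (SD, n = 3). There CYP99A3, MAS copy, MAS and KSL10 formed a run in which each overlapped the next, with means between 0.819 and 0.533 TPM. MAS copy, at 1.15 TPM in its highest osino80 library, also overlapped CYP99A2, at 0.933 TPM in its lowest. KSL4 stayed the lowest at 0.158 ± 0.0696 TPM.

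Sums and ratios of TPM within a library compared transcript levels along the routes between genotypes. No enzyme or product was measured. The 6 cluster genes summed to 11.9, 11.8 and 10.9 TPM in the WT libraries and to 5.18, 5.52 and 6.33 TPM in the osino80 libraries. CPS4 held 47.8%, 40.4% and 48.4% of that sum in WT and 38.3%, 36.5% and 36.9% in osino80, with no overlap. Within the route, CPS4 exceeded KSL4 by 12.0 ± 3.88 times in WT and 14.8 ± 5.01 times in osino80 (SD, n = 3), a ratio whose libraries overlapped.

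Where the syn branch divides, KSL8 had 5.73 ± 1.53 times the TPM of KSL4 in WT and 14.8 ± 3.59 times in osino80 (SD, n = 3), with no overlap. The level of KSL8 was 0.485 ± 0.0636 of that of CPS4, the enzyme that feeds it, in WT and 1.03 ± 0.134 in osino80. On the ent branch, KSL10 had 0.228 ± 0.0200 of the TPM of CPS2 in WT and 0.554 ± 0.208 in osino80 (SD, n = 3). In both branches the downstream synthase outside the cluster was thus higher relative to its CPS gene in every osino80 library than in any WT library. KSL8 and KSL10 themselves did not rise, with log2 fold changes of -0.23 and -0.62. The ratio to KSL4 rests on only 12, 14 and 28 KSL4 counts in osino80. These ratios combine the same levels that guided the choice of genes and were not tested.

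The spread between libraries was close to what counting alone gives for several of the genes. In WT the coefficient of variation of CPM was 17.5% for CYP99A3, where counting read pairs gives 17.0%, and 21.5% for KSL4, where it gives 19.0%. CPS4 was above counting in WT, at 8.92% against 5.08%. KSL8 and KSL10 were below it there, at 3.29% against 8.14% and 4.47% against 14.3%. In osino80 MAS copy and KSL4 varied by 43.3% and 44.3%, above the 24.5% and 33.3% from counting, and KSL8 by 19.8%, above 9.10%. WT replicate 2 was the highest WT library in 6 of 8 genes. Osino80 replicate 3 was the highest mutant library in 5 of 8, while CYP99A2, KSL10 and MAS were highest in another mutant library. At these counts a difference of the size seen for KSL8 or CYP99A3 was at the edge of, or below, what the libraries could resolve.

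Other loci of the interval were almost silent. Between CPS4 and CYP99A2 the tables list 20 further locus numbers, of which 15 had no count in any library and the other 5 had 25 counts in all over the 6 libraries, so none was tested. The 6 cluster genes were therefore the only tested loci there, and 9 silent or nearly silent numbers separate KSL4 from CYP99A2. Of the 38 loci in the flanks, 20 locus numbers wide on either side, 9 were tested, and their log2 fold changes ran from -0.14 to 0.61.

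None of these flanking loci was lower with edgeR or DESeq2 after adjustment, against 1 lower with an unadjusted p under 0.05 in both. That locus, on the CYP99A2 side, passed without osino80 replicate 3 (log2 fold change -0.13). With edgeR 19.1% of all tested genes were lower and 18.4% higher. The 9 tested loci are too few to set the flanks apart from those shares. LOC_Os04g09810, on the CPS4 side and without a name in the files, was higher in osino80, from 2.34 ± 0.488 to 3.60 ± 0.0723 CPM (SD, n = 3; log2 fold change 0.61 ± 0.16, SE, edgeR adjusted p = 0.000498). Its 3 osino80 libraries stood above its 3 WT libraries. That locus lost its call where limma was run on TPM without a filter (adjusted p = 0.0735, and 0.00017 to 0.0735 over its alternatives).

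**Figure D3:**
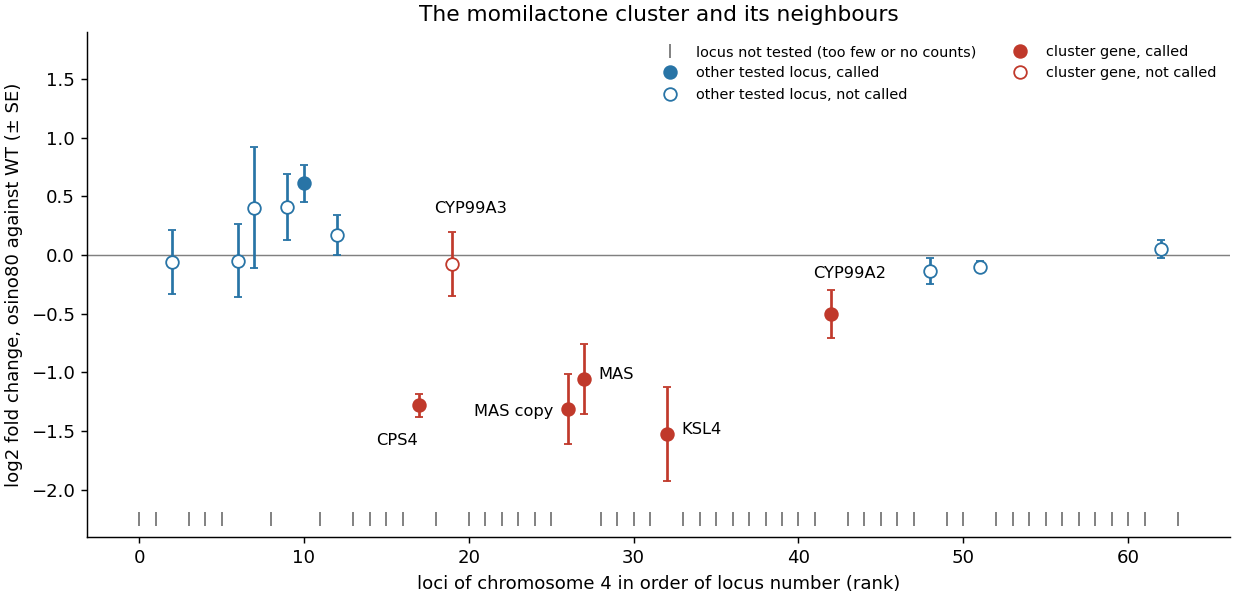
Log2 fold change (± SE) of the tested loci around the momilactone cluster in order of locus number, with the cluster genes in red, other loci in blue and ticks at the foot for loci with too few counts to test; filled points passed an edgeR adjusted p of 0.05. The 6 cluster genes stand among ticks, and the 9 tested flanking loci lie between -0.14 and 0.61.

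The genes whose profile over the 6 libraries was most like that of CPS4 lay outside the cluster. Likeness was the Euclidean distance between centred log2(CPM + 0.5) values, over 20672 genes outside the set. The nearest were LOC_Os10g34230 at 0.157 and LOC_Os04g27190 at 0.195, which the files do not name. LOC_Os10g34230 had 7.55 ± 0.464 CPM in WT and 3.16 ± 0.159 CPM in osino80, and LOC_Os04g27190 had 56.3 ± 0.617 and 23.5 ± 0.955 CPM (SD, n = 3). Within the set MAS copy was nearest to CPS4, at 0.666, and 173 genes outside it were nearer than that. MAS copy had 1.30 CPM in WT and 0.519 CPM in osino80, so the added 0.5 shrank its difference between genotypes. The distances of such weakly expressed genes therefore also depend on their level and counting noise, and say little about a shared profile.

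Genes that act around the set were counted from 4 lists of published locus numbers, 36 genes of which 34 were tested. In osino80 20 of the 34 were lower, 4 higher and 10 did not pass, where 37.6% of all tested genes passed in either direction. The lists were drawn up with earlier results of these data known.

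P450 genes that decorate the diterpenes outside the cluster were lower in 6 of 7 cases, each at least 2-fold, with a median log2 fold change of -1.50. The shares over all tested genes were 19.1% lower and 1.33% at least 2-fold lower. CYP701A8, which hydroxylates oryzalexin and phytocassane precursors, had WT counts of 560, 574 and 493 and osino80 counts of 203, 204 and 214. It lies on chromosome 6 and changed by -1.29 ± 0.12 on the log2 scale (SE, edgeR adjusted p = 5.57e-23), beside -1.28 ± 0.10 for CPS4. CYP76M8, which takes part in momilactone and oryzalexin synthesis and was named after its values were seen, changed by -1.80 ± 0.30 (SE, edgeR adjusted p = 3.54e-08). CYP71Z7, a P450 gene of the phytocassane route, changed by -1.50 ± 0.15 (SE, edgeR adjusted p = 2.77e-19). CYP71Z6 did not pass, at 0.08 ± 0.17. Apart from CYP701A8 these genes have neighbouring locus numbers on chromosome 2, and similar CYP76M copies may share reads.

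Among 6 tested diterpene synthases outside the set, 2 were lower, 1 higher and 3 did not pass, beside 19.1% lower and 18.4% higher of all tested genes. CPS2, the source of the ent precursor for KSL10, stood at 24.8% of its WT level in CPM and KSL7, a synthase of the phytocassane route, at 40.1%. The gibberellin genes CPS1 and KS1, which use the same kind of precursor for growth hormone, had log2 fold changes of 0.04 ± 0.08 and 0.13 ± 0.05 (SE). KS1 passed (edgeR adjusted p = 0.0350), but not without WT replicate 1 (adjusted p = 0.209), WT replicate 2 (0.0548) or osino80 replicate 1 (0.364), without the low-count filter or on TPM (0.0125 to 0.364 over the alternatives tried).

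Genes of the plastid pathway that supplies geranylgeranyl diphosphate were lower in 7 of 10 cases and higher in 1, beside 19.1% and 18.4% of all tested genes. Most changed by little, with a median log2 fold change of -0.12. The exception in size was DXS3, one isoform of the entry enzyme, with WT counts of 348, 294 and 283 and osino80 counts of 107, 140 and 80. It fell to 38.0% of the WT level (log2 fold change -1.40 ± 0.16, SE, edgeR adjusted p = 6.93e-16). DXS1, the most abundant isoform, rose by 0.10 ± 0.02 (SE, edgeR adjusted p = 7.46e-07). Its WT counts were 25484, 24706 and 21546, and at such counts a small change can pass. The share passing among genes of such abundance was not computed. DXR, the second enzyme of the pathway, changed by -0.25 ± 0.02 on the log2 scale (SE, edgeR adjusted p = 9.19e-23), and CMK did not pass, at 0.05 ± 0.05. GGPPS1, the geranylgeranyl diphosphate synthase gene, named after its values were seen, changed by -0.24 ± 0.03 (SE, edgeR adjusted p = 8.12e-11).

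Regulators of the diterpenoids moved in both directions, with 5 of 11 lower, 2 higher and 4 not passing. Of all tested genes 19.1% were lower and 18.4% higher. DPF, a bHLH factor that activates momilactone and phytocassane genes in rice, had WT counts of 59, 45 and 46 and osino80 counts of 20, 14 and 7. All osino80 libraries lay below all WT libraries, and DPF changed by -1.76 ± 0.44 on the log2 scale (SE, edgeR adjusted p = 0.000402). WRKY45, a positive regulator of diterpenoid phytoalexins, fell to 80.1% of the WT level (edgeR adjusted p = 8.09e-06). WRKY62 and WRKY76, named after their values were seen, were lower, with log2 fold changes of -0.64 ± 0.17 and -0.40 ± 0.13 (SE). The list does not separate activators from repressors, so a lower regulator gives no direction for the routes.

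WRKY53, a WRKY factor downstream of an elicitor-activated kinase cascade, went the other way and rose from 81.5 ± 0.817 to 120 ± 2.81 CPM (SD, n = 3; log2 fold change 0.55 ± 0.03, SE, edgeR adjusted p = 8.81e-60). MPK3, a kinase of that cascade, rose by 0.32 ± 0.08 on the log2 scale (SE, edgeR adjusted p = 0.00042). TGAP1, a bZIP activator of the momilactone cluster named after its values were seen, changed by -0.14 ± 0.04 (SE, edgeR adjusted p = 0.0077), a call lost without osino80 replicate 3 (adjusted p = 0.0582) and on TPM (0.0043 to 0.195 over the alternatives tried).

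**Figure D4:**
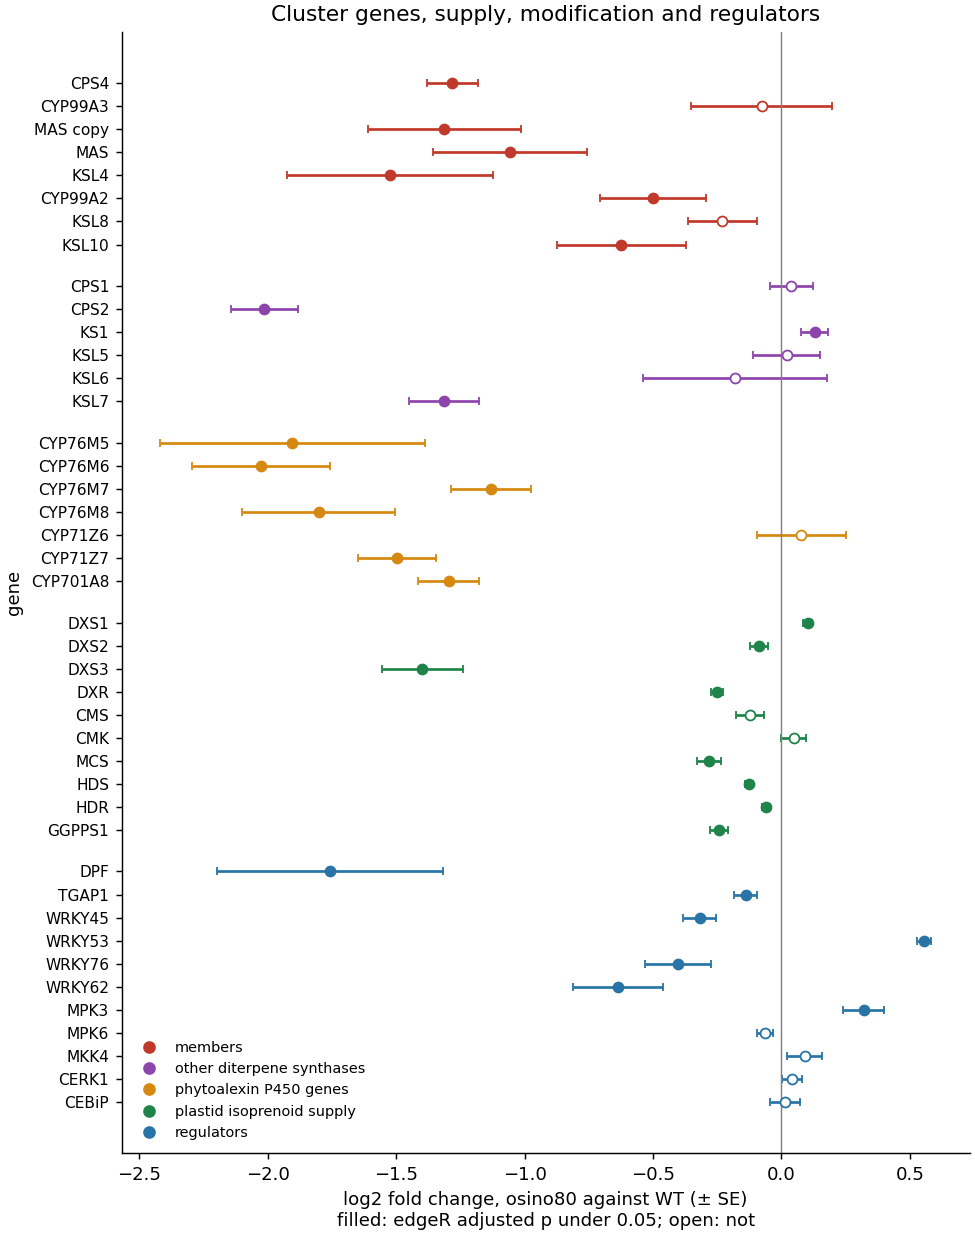
Log2 fold change (± SE) of the 8 genes (red) and of the 34 tested genes of the 4 lists by role, filled where edgeR's adjusted p was under 0.05. CPS2, KSL7, 6 of 7 P450 genes, DXS3 and DPF lie between -2.03 and -1.13, while the remaining supply and regulator genes lie between -0.64 and 0.55.

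Root and leaf markers were examined because momilactones are also root products and the labels name seedlings without saying whether roots were included. In such RNA, fewer cells of a type and less RNA per cell cannot be told apart. The 6 root markers summed to 32.8 to 33.6 CPM in WT and 33.6 to 35.9 CPM in osino80. Of 5 tested, the silicon channel gene Lsi1 was higher (log2 fold change 0.35 ± 0.07, SE, edgeR adjusted p = 9.77e-07), the metal transporter gene Nramp5 lower (-0.35 ± 0.09, adjusted p = 0.00038) and 3 did not pass. Lsi2, the silicon exporter gene, had WT counts of 12, 14 and 8, no count in any osino80 library, and was not tested. Root markers were low in every library beside the leaf markers, but they differed in level. Lsi1 stood at 15.2 ± 0.476 TPM and Nramp5 at 6.43 ± 0.208 TPM in WT (SD, n = 3), both above CPS4. RCc3, a root-specific gene, had WT counts of 2, 10 and 20 and osino80 counts of 12, 10 and 8, and the aquaporin gene PIP2.5 stood at 1.22 ± 0.0218 TPM in WT, beside 16430 ± 174 TPM for the Rubisco small subunit gene RBCS2 (SD, n = 3).

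The 5 green leaf markers summed to 40454 to 41268 CPM in WT and 40419 to 41704 CPM in osino80. Even so, 4 of the 5 passed, in opposite directions, beside 37.6% of all tested genes. The 3 Rubisco small subunit genes were lower, with -0.09 ± 0.01 on the log2 scale for RBCS3 (SE, edgeR adjusted p = 2.54e-16) and -0.09 ± 0.01 for RBCS2 (adjusted p = 2.69e-15). The chlorophyll-binding protein gene CAB2R was higher (0.17 ± 0.01, SE, edgeR adjusted p = 2.55e-41). CAB1R did not pass, at 0.05 ± 0.03, but passed with a replicate block (edgeR adjusted p = 1.84e-07). The part of organ proportions in the lower cluster genes was not tested.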

How the data were processed

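The authors deposited raw counts per gene and TPM (transcripts per 1000000) for 6 libraries. Per the submitters' processing notes, the tools were cutadapt, HISAT2, SAMtools and featureCounts. Their versions, the genome build, annotation, strand setting, handling of multi-mapping reads and the TPM method are not given in the sources used. Libraries were made with a stranded mRNA kit, per the labels' protocols.

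Counts were tested over all genes with edgeR 4.0.16 in R 4.3.3 (filterByExpr, TMM, glmQLFit with robust=TRUE, glmQLFTest, genotype only, two-sided, Benjamini-Hochberg adjustment, threshold 0.05), and adjusted p means this test unless another is named. A standard error is the log2 fold change divided by the square root of F; intervals are 1.96 standard errors either side and approximate. Counting errors cover counting only. TPM served for levels between genes. Alternatives were DESeq2 1.42.0, limma 3.58.1 on log2(TPM + 1) and log2(TPM + 0.1), other scaling and filters, a replicate block, halved counts and each library left out. The fit was tested on simulated counts. No 2 libraries agreed within sampling noise.

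The 8 genes and the lists were chosen with earlier results of these data known. Genes named outside the set are, per list, at most 2 in each direction by smallest p, plus the called flanking locus and the 2 loci most like CPS4. CYP76M8, GGPPS1, TGAP1, WRKY62, WRKY76, Lsi2, RCc3 and PIP2.5 fall outside that rule and were named after their values were seen. Names come from published locus numbers, not from the files. The RefSeq table (ASM3414082v1) placed 25 of 47 list names on the stated chromosome, 2 (CYP76M7 and MPK6) on another, 3 on several, and did not hold 17, DPF, TGAP1 and DXS3 among them. Coordinates and sequences are left out, since no annotation of the files' build was at hand.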

Additional observations from a re-analysis of the deposited data

How the results depend on the processing

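Over 15 alternatives, CPS4, MAS copy, MAS and KSL4 kept their direction and their side of the threshold, and of the 120 values of the 8 genes 104 did so. CYP99A2 and KSL10 lost their call in 7 alternatives each, KSL8 gained one without osino80 replicate 3, and CYP99A3 changed sign without WT replicate 3, with -0.20 to 0.052 over the libraries left out. Depending on the alternative, 4 to 6 of the 8 genes passed. On log2(TPM + 1) the log2 fold change of KSL4 was -0.33, since its level lies below that pseudocount. CPS1 ranged from -0.056 to 0.11 and CYP71Z6 from -0.048 to 0.16 with libraries left out, changing sign. MPK3, RBCS2 and RBCS3 lost their calls with limma on TPM without a filter, and CAB1R gained one with the replicate block. The count of genes passing was 9363, and 6176 with limma on TPM without a filter; with libraries left out it was 8275 to 8515. In the flanks 1 locus passed, 0 with limma on TPM without a filter (3 at an unadjusted p under 0.05) and 1 to 2 with libraries left out. Deviations of same-numbered libraries from their genotype means correlated at 0.0117, -0.0173 and 0.00981, so the numbers were not taken as pairs; with the replicate block 9329 genes passed and all 8 genes stayed on the same side. Counts of under 100 per library for 5 of the 8 genes in osino80 limit what can be resolved.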
